A study of Mus musculus with 11 samples.

Results

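The 37 genes described here encode the machinery of autophagy and the lysosome: 2 transcription factors, 29 proteins of autophagosome formation and cargo capture, and 6 lysosomal proteins. Each gene was represented by the probe set of highest mean level that carried that gene's symbol and no other. All 37 of 37 listed genes had such a probe set, among 18194 genes measured. Their RNA was measured in T cells isolated from spleen of female mice, 3 to 4 months old, either C57BL6 wild type or crbn-/-, which lack cereblon, the substrate receptor of a ubiquitin ligase and the target of thalidomide-like drugs. The cells were enriched by negative bead selection, which removes other cells and leaves T cells untouched, and kept in complete RPMI-10 medium. They were collected naive or after 12 hours on plate-bound anti-CD3 at 5 µg/ml with soluble anti-CD28 at 1 µg/ml, antibodies that stimulate the T cell receptor and its costimulator. There were 3 arrays of wild-type naive cells, 3 of knockout naive cells, 2 of wild-type activated cells and 3 of knockout activated cells, and the comparisons ask how activation changed these genes in each genotype and how the genotypes differed. No group was cultured for 12 hours without the antibodies, so stimulation and time in culture cannot be told apart.

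In autophagy a membrane grows around a portion of cytoplasm, closes into an autophagosome and fuses with a lysosome, where acid hydrolases such as the cathepsins degrade the contents. The ULK kinase complex starts the process, a lipid kinase complex marks the site, and a ubiquitin-like conjugation system attaches LC3 and GABARAP proteins to the membrane, where cargo receptors dock. In naive T cells autophagy is known for its part in survival and in the turnover of mitochondria, and receptor stimulation is known to alter it. The data are RNA levels and do not measure autophagic activity.

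All levels below are log2 values computed by RMA, in which a step of 1 is a 2-fold change, and a difference is called where the adjusted p of limma, a linear model over all genes, was under 0.05. Crbn itself was lower in knockout arrays, by 1.13 on the log2 scale in naive cells (SE 0.085, limma adjusted p = 8.7e-05) and by 0.90 in activated cells (SE 0.095, adjusted p = 0.0041); the second call was lost without wild-type activated replicate 1 (adjusted p = 0.085). The sources used here do not say which part of Crbn was deleted, nor where its probe set lies, and its RNA was still measured in the knockout. Arrays of a group correlated at 0.994 to 0.998 and arrays of different states at 0.950 to 0.964. The T cell markers had a median level of 11.17 to 11.88 in the 4 groups, and 0 of 7 lay below the lower quartile of every array. Markers of B cells, macrophages and monocytes, plasma cells and erythroid cells were also measured, and their summed levels in wild type were lower in activated arrays, as given below beside the cathepsins. Those of neutrophil, dendritic cell and platelet markers in wild type were lower too. Natural killer cell markers had higher sums, 730 to 815 in naive and 1355 to 1594 in activated wild-type arrays. In knockout these sums were 718 to 988 and 1334 to 1927. Their median level in wild type was lower, at 6.11 in naive and 5.54 in activated cells. In bulk RNA, fewer cells of a type and less RNA per cell cannot be told apart.

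Activation lowered most of the machinery in both genotypes. In wild-type cells 21 of the 37 genes (56.8%) fell and 4 rose, while 20.9% of all genes fell and 20.2% rose (41.1% in either direction). In knockout cells 21 fell and 7 rose, against 22.4% and 20.7% of all genes (43.2% in either direction). By mean level most of the 37 genes lay above the median gene, which was at 6.63, while the shares of all genes include dim ones. Shares among genes of like level are not given here, nor for the lists of related genes below. The median log2 difference of the 37 genes was -0.33 in wild type and -0.25 in knockout, where the medians over all genes were 0.06 and -0.03. Falls of at least 2-fold were found for 4 of the genes in wild type (10.8%, against 5.61% of all genes) and 6 in knockout (16.2%, against 5.86%). The wild-type and knockout comparisons share no array. In all, 19 genes (51.4%, against 18.3% of all genes) fell in both, 4 rose in both (10.8%, against 16.0%), and 0 were called in opposite directions.

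**Figure D1:**
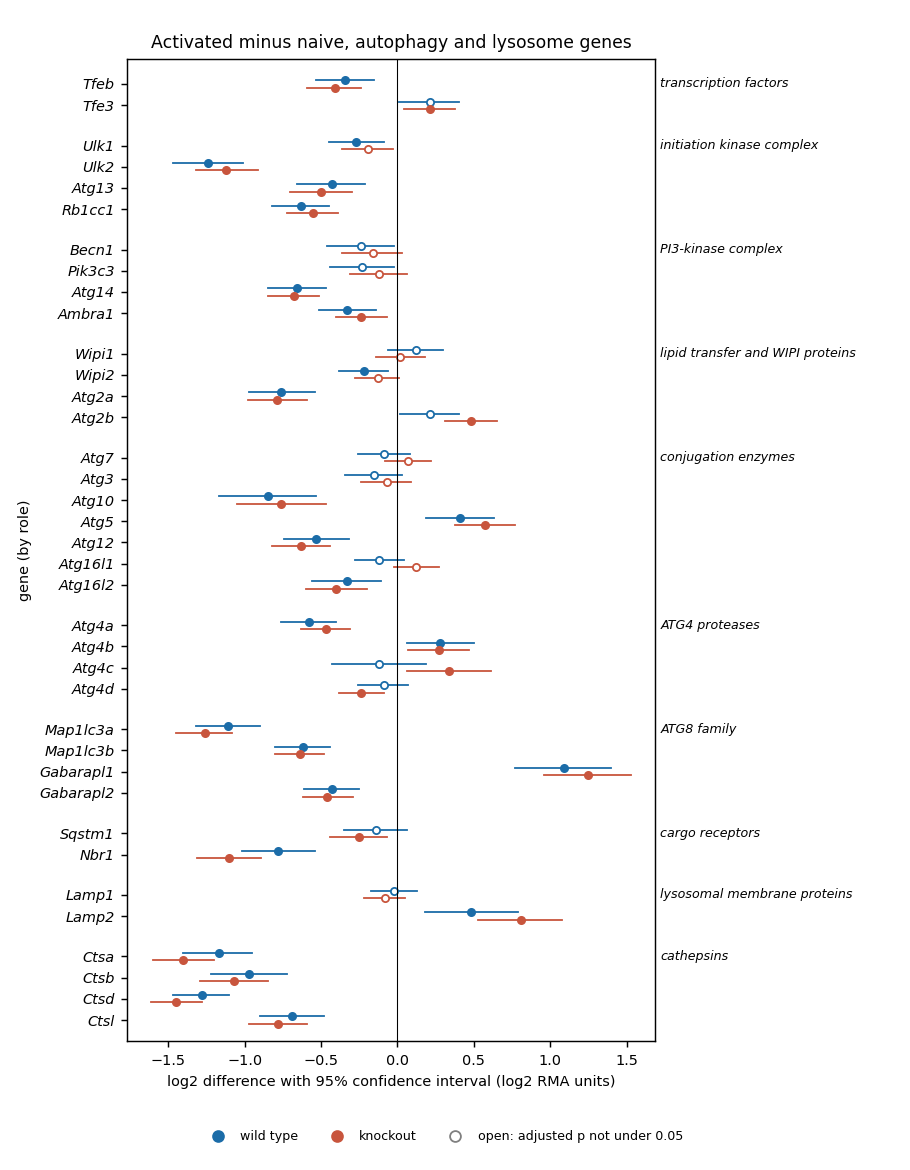
Log2 difference between activated and naive cells (x axis, log2 RMA units) for each of the 37 genes, ordered by role, in wild type (blue) and knockout (red); lines are 95% confidence intervals from limma and filled points have an adjusted p under 0.05. Most points lie left of 0, with Ctsd, Ctsa, Ctsb, Ulk2 and Map1lc3a near or past -1, and Gabarapl1 and Lamp2 are the points farthest to the right.

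The transcription factors of the set are TFEB and TFE3, which bind E-box elements of lysosomal genes and are held in the cytoplasm when mTORC1 is active. Tfeb read 7.91, 7.96 and 8.04 in the wild-type naive arrays and 7.91, 8.07 and 8.16 in the knockout naive arrays. It read 7.66 and 7.59 in the wild-type activated arrays and 7.68, 7.67 and 7.54 in the knockout activated arrays. The activated arrays lay below every naive array, and Tfeb fell by 0.34 in wild type (SE 0.088, limma adjusted p = 0.0065) and by 0.41 in knockout (SE 0.079, adjusted p = 6.4e-04). A renewed quantile normalization ended the wild-type call, at -0.24 with an adjusted p of 0.075. Tfe3 moved by 0.21 in each genotype, which passed the threshold in knockout (SE 0.080, adjusted p = 0.047) and missed it in wild type (SE 0.089, adjusted p = 0.085). Without any 1 of 7 arrays (wild-type naive replicates 2 and 3, every knockout naive array, knockout activated replicates 1 and 2) the knockout value of Tfe3 missed it too (adjusted p 0.053 to 0.16), and without wild-type activated replicate 1 the wild-type value passed it (0.31, adjusted p = 0.027), while it was 0.10 without replicate 2.

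The 4 cathepsins, proteases that work inside the lysosome, all fell in both genotypes. Ctsd, the aspartic protease cathepsin D, read 10.66, 10.73 and 10.81 in wild-type naive arrays and 10.74, 10.78 and 10.63 in knockout naive arrays. It read 9.42 and 9.49 in wild-type activated arrays and 9.25, 9.38 and 9.18 in knockout activated arrays. Naive and activated arrays were more than 1 log2 unit apart with no overlap, a 2.43-fold fall in wild type (log2 difference -1.28, SE 0.085, limma adjusted p = 1.1e-07) and a 2.72-fold fall in knockout (-1.45, SE 0.076, adjusted p = 6.6e-09). Ctsd had 1 probe set only.

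Ctsa encodes cathepsin A, a carboxypeptidase that also protects beta-galactosidase and neuraminidase in the lysosome. Its level was 10.33, 10.40 and 10.49 in wild-type naive arrays and 10.42, 10.43 and 10.48 in knockout naive arrays. After activation the wild-type arrays read 9.19 and 9.28 and the knockout arrays 8.91, 9.27 and 8.95. Again no activated array reached a naive one, and Ctsa fell 2.26-fold in wild type (-1.17, SE 0.103, limma adjusted p = 1.1e-06) and 2.64-fold in knockout (-1.40, SE 0.092, adjusted p = 4.4e-08). A second, dimmer Ctsa probe set differed by only 0.09 and -0.12 and passed in neither genotype, so that the mean of both probe sets fell by 0.54 and 0.76.

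Ctsb, the cysteine protease cathepsin B, read 10.49, 10.44 and 10.55 in wild-type naive arrays and 10.47, 10.35 and 10.47 in knockout naive arrays. It read 9.33 and 9.72 after activation in wild type and 9.36, 9.50 and 9.22 in knockout. The activated arrays were lower throughout, with the wild-type pair farther apart than any other group, and the log2 differences were -0.97 (SE 0.114, limma adjusted p = 1.4e-05) and -1.07 (SE 0.102, adjusted p = 1.2e-06). Of its 4 other probe sets 3 also fell in each genotype, by 0.75, 1.04 and 1.19 in wild type and by 0.73, 0.89 and 0.95 in knockout. Ctsl, the cysteine protease cathepsin L, fell by 0.69 in wild type (SE 0.099, adjusted p = 7.7e-05) and by 0.78 in knockout (SE 0.088, adjusted p = 6.4e-06).

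Cathepsins are abundant in macrophages, and markers of macrophages and monocytes moved the same way. Of 14 measured markers 10 fell in each genotype and 0 rose, with medians of -0.69 in wild type and -0.77 in knockout. Their summed linear level was 1715 to 1870 in naive and 937 to 941 in activated wild-type arrays, and 1631 to 2253 in naive and 918 to 1078 in activated knockout arrays. Itgam, which encodes the integrin chain CD11b, lay below each array's lower quartile in all 11 arrays, a level taken here as background. B cell markers fell in 5 of 8 cases in each genotype, and their summed level went from 12287 to 13540 down to 4065 to 5256 in wild type and from 13748 to 16084 down to 5457 to 6190 in knockout. Of the 7 T cell markers 5 fell in each genotype and 1 rose in wild type, with summed levels of 28547 to 31686 and 30736 to 31670 in naive arrays against 18508 to 19780 and 16961 to 18364 in activated ones. Of 5 plasma cell markers 2 fell in each genotype, and their summed level was 4665 to 5816 in naive and 978 to 1204 in activated wild-type arrays, and 5270 to 6453 and 1296 to 1462 in knockout. Jchain, the joining chain of secreted antibodies, fell most among them (-3.10 and -2.75). Of 5 erythroid markers 3 fell in wild type and 1 in knockout, with summed levels of 1818 to 6162 in naive and 642 to 717 in activated wild-type arrays, and 615 to 2467 and 471 to 817 in knockout. The part of these markers in the falls of the cathepsins and other genes was not tested.

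The other lysosomal members are the heavily glycosylated membrane proteins LAMP1 and LAMP2, which line the lysosome, and neither was called lower. Lamp1 read 10.80, 10.82 and 10.78 in naive and 10.72 and 10.83 in activated wild-type arrays. In knockout it read 10.85, 10.76 and 10.84 in naive and 10.75, 10.73 and 10.72 in activated arrays. The wild-type states overlapped and the knockout activated arrays lay just below the naive ones, and the differences of -0.02 (95% interval -0.17 to 0.13) and -0.08 (95% interval -0.22 to 0.05) passed in neither genotype. Without wild-type activated replicate 1 the wild-type value turned to 0.03, and after a renewed quantile normalization the knockout value passed (-0.18, limma adjusted p = 0.017).

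Lamp2 read 9.52, 9.24 and 9.04 in wild-type naive arrays and 9.26, 8.99 and 8.78 in knockout naive arrays. It read 9.76 and 9.74 in wild-type activated arrays and 9.83, 9.83 and 9.79 in knockout activated arrays. All 5 activated arrays were above all 6 naive ones, which spread more widely within a group, and Lamp2 rose 1.40-fold in wild type (0.48, SE 0.141, limma adjusted p = 0.014) and 1.75-fold in knockout (0.81, SE 0.126, adjusted p = 1.2e-04). The wild-type call was lost when wild-type naive replicate 3 (0.37, adjusted p = 0.052), wild-type activated replicate 1 (0.47, adjusted p = 0.078) or wild-type activated replicate 2 (0.50, adjusted p = 0.063) was left out. Its probe sets disagreed: 1 of the 3 others also rose in wild type (0.35) and 2 in knockout (0.77 and 0.46), while another read -0.01 and -0.11. The mean over probe sets was 0.22 in wild type (adjusted p = 0.12) and 0.48 in knockout (adjusted p = 7.4e-04). Lamp2 makes splice forms with different tails, and which of them each probe set reads is unknown here.

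Promoter sequence bears on these genes because TFEB and TFE3 are known to bind the E-box core CACGTG, within a longer element found at many lysosomal genes. RefSeq promoter windows of 300 bases, 250 before the transcription start and 50 from it on, in build GRCm38.p6, matched 30 of the 37 genes by symbol, with 37 windows. CACGTG, which reads the same on both strands, was present in 8 of these windows (21.6%) and in 7.15% of all 32851 windows. Among the windows of genes on the array the share was 8.72%. In the lists of related genes described below it was 12.1% (other autophagy genes), 22.2% (hydrolases), 30.8% (membrane and transport proteins), 28.6% (vacuolar ATPase) and 25% (TFEB list). The higher share of CACGTG was therefore not particular to the 37 genes. CACGTG lay in windows of Ctsa (1 of its 2), Ctsd, Ctsl and Atg14, which fell in both genotypes. It also lay in those of Atg5, which rose in both, and of Atg3, Atg7 and Lamp1, which were called in neither. TCACGTG on either strand, each match of which contains a CACGTG, was in 6 windows (16.2%). It was in 3.77% of all windows and 4.95% of those of genes on the array. GTAAACA, a forkhead factor core, was in 0 of the 37 windows on either strand. It was in 3.65% of all windows and 2.98% of those of genes on the array. No match says only that these letters are not in this window. At least 2 copies of CACGTG were found in 10.8% of the windows of the 37 genes. The share was 0.594% of all windows, 0.85% of those of genes on the array and 0% to 19.2% in the lists of related genes. The promoters of Ctsa and Ctsd, the cathepsins that fell most, and of Lamp1, whose level hardly differed, are printed to compare their E-boxes, with each CACGTG in capitals. They run 5′ to 3′ from 250 bases before the start to 15 bases from it on, and lie at chr2:164833523-164833787 (plus strand, 1 of 2 windows of Ctsa), chr7:142387813-142388077 (minus strand, Ctsd) and chr8:13158911-13159175 (plus strand, Lamp1). For Ctsa the window with more copies of CACGTG is printed. The other Ctsa window, chr2:164832622-164832921, holds 0 copies. The printed Ctsa start, 164833773, lies inside the gene, which begins at 164832872.
Ctsa: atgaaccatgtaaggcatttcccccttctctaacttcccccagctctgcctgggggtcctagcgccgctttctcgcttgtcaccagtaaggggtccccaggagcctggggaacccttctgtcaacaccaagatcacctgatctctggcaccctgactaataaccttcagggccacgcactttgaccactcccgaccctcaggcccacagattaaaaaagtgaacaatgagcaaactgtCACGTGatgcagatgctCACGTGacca
Ctsd: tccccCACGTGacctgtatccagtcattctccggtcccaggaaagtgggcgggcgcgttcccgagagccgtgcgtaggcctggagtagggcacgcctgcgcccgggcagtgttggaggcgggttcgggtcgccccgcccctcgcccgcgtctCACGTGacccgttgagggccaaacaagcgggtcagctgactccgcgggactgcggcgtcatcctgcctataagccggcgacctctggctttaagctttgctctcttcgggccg
Lamp1: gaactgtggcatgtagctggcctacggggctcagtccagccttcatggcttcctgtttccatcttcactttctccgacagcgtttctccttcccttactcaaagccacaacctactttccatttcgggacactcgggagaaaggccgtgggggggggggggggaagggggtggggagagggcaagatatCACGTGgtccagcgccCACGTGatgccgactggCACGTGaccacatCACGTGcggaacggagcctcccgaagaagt
Counted with the start base as 1 and no position 0, the E-boxes begin at -12 and 6 in Ctsa, at -245 and -98 in Ctsd, and at -61, -45, -28 and -15 in Lamp1. A window with 4 or more copies, as in Lamp1, was 1 of only 8 among all windows (0.0244%). Of the 4 genes with 2 or more copies, Ctsa and Ctsd fell and Atg3 and Lamp1 were not called. These matches describe letters and are not measured binding sites.

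**Figure D2:**
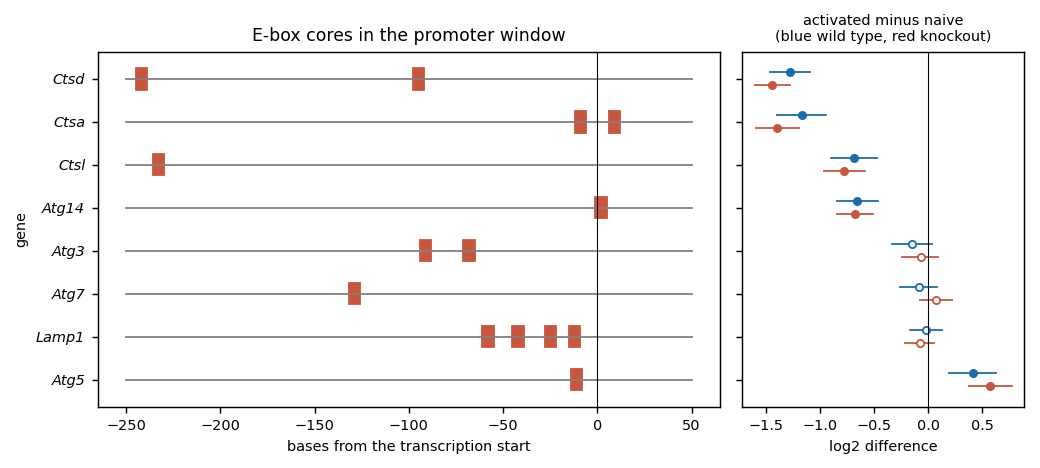
Positions of CACGTG (red blocks) in the promoter windows of the 8 genes that hold it, in bases from the transcription start (x axis, left), beside each gene's log2 difference between activated and naive cells with its 95% interval (right; blue wild type, red knockout, filled where the adjusted p is under 0.05). Ctsd and Ctsa (1 of its 2 windows) with 2 copies each fell, Lamp1 with 4 copies was not called, and Atg5 with 1 copy rose.

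The ULK complex, which starts autophagosome formation when nutrients are short, fell in all 4 of its genes in wild type and in 3 of 4 in knockout. Ulk2, a kinase of the complex, read 8.67, 8.62 and 8.57 in wild-type naive arrays and 8.46, 8.52 and 8.32 in knockout naive arrays. It read 7.38 and 7.38 in wild-type activated arrays and 7.36, 7.49 and 7.10 in knockout activated arrays. The states were well separated, and Ulk2 fell 2.36-fold in wild type (-1.24, SE 0.106, limma adjusted p = 8.8e-07) and 2.17-fold in knockout (-1.12, SE 0.095, adjusted p = 4.3e-07). Its 3 other, dimmer probe sets were lower as well, and the mean over all 4 fell by 0.78 and 0.70. Rb1cc1, the scaffold FIP200, fell by 0.63 and 0.55, the wild-type value being -0.41 as a mean over probe sets. Atg13, the adaptor between kinase and scaffold, fell by 0.43 and 0.50, with a wild-type mean over probe sets of -0.65. Its probe sets disagreed: the dimmest fell by 1.44 and 1.10, while another differed by -0.08 and -0.12 and passed in neither genotype. Ulk1, the better-known kinase, fell by 0.27 in wild type (SE 0.084, adjusted p = 0.021) and was not called in knockout (-0.19, SE 0.075, adjusted p = 0.055). The wild-type call of Ulk1 was lost without wild-type naive replicate 2 (adjusted p = 0.06), leaving out wild-type activated replicate 1 (-0.18, adjusted p = 0.17) and over the mean of its probe sets (-0.13, adjusted p = 0.20). Its knockout value passed without knockout activated replicate 2 and without either wild-type activated array (adjusted p 0.023 to 0.037).

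In the lipid kinase complex, which makes the phosphoinositide that marks the growing membrane, Atg14 and Ambra1 fell and Pik3c3 and Becn1 were not called. Atg14, which directs the complex to autophagosome sites, fell by 0.66 (SE 0.086, limma adjusted p = 3.6e-05) in wild type and 0.68 (SE 0.077, adjusted p = 6.6e-06) in knockout. Ambra1, a scaffold that links the complex to ubiquitin ligases, fell by 0.33 and 0.24. The wild-type call of Ambra1 was lost without wild-type activated replicate 1 (-0.24, adjusted p = 0.072), and the knockout call without knockout naive replicate 3 (adjusted p = 0.095) or knockout activated replicate 1 (adjusted p = 0.085). Pik3c3, the kinase itself, differed by -0.23 (adjusted p = 0.082) in wild type and -0.12 (adjusted p = 0.30) in knockout, and Becn1, its partner Beclin 1, by -0.24 (adjusted p = 0.075) and -0.16 (adjusted p = 0.17). Without wild-type activated replicate 1 the wild-type Becn1 value passed (-0.41, adjusted p = 0.0044), while it was -0.06 without replicate 2 and -0.01 over the mean of its probe sets (adjusted p = 0.92). That of Pik3c3 passed when wild-type naive replicate 3 was left out (-0.30, adjusted p = 0.034).

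Lipid transfer and phosphoinositide-binding proteins went separate ways. Atg2a, which carries lipids into the growing membrane, fell by 0.76 (SE 0.099, limma adjusted p = 3.5e-05) in wild type and by 0.79 (SE 0.088, adjusted p = 6.0e-06) in knockout. Its paralog Atg2b read 7.70, 7.61 and 7.55 in naive and 7.70 and 7.96 in activated wild-type arrays. In knockout it read 7.46, 7.40 and 7.44 in naive and 7.85, 7.95 and 7.94 in activated arrays. The knockout states did not overlap, while wild-type activated replicate 1 read the same as wild-type naive replicate 1 at 2 decimals. Atg2b rose by 0.48 in knockout (SE 0.078, adjusted p = 1.7e-04) and was not called in wild type (0.21, SE 0.087, adjusted p = 0.071), where it passed without wild-type activated replicate 1 (0.34, adjusted p = 0.0093) and was 0.08 without replicate 2. The mean over Atg2b probe sets missed the threshold in knockout (0.16, adjusted p = 0.053). Wipi2, which recruits the conjugation machinery, fell by 0.22 in wild type (SE 0.073, adjusted p = 0.027), a call lost without any 1 of 4 wild-type arrays (naive replicates 1 and 2, activated replicates 1 and 2; adjusted p 0.053 to 0.087) and over the mean of its probe sets (-0.04, adjusted p = 0.67). In knockout Wipi2 differed by -0.13, and Wipi1 by 0.12 in wild type and 0.02 in knockout, none of them past the threshold. Probe sets of both genes disagreed. Another Wipi2 probe set rose in knockout (0.70, adjusted p = 1.8e-04) and read 0.32 in wild type (adjusted p = 0.066). The dimmest Wipi2 probe set read -0.21 and -0.22, not called. A dimmer Wipi1 probe set fell in wild type (-0.37, adjusted p = 0.039) and read -0.25 in knockout (adjusted p = 0.1).

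Among the enzymes that conjugate ATG12 and the ATG8 proteins, falls and rises stood side by side. Atg10, the E2-like enzyme of ATG12, read 6.67, 6.47 and 6.19 in wild-type naive arrays and 6.35, 6.16 and 6.24 in knockout naive arrays. It read 5.54 and 5.65 in wild-type activated and 5.66, 5.61 and 5.20 in knockout activated arrays. All activated arrays were below all naive ones, a 1.80-fold fall in wild type (-0.85, SE 0.148, limma adjusted p = 4.2e-04) and a 1.70-fold fall in knockout (-0.76, SE 0.133, adjusted p = 3.1e-04). Atg12, the ubiquitin-like protein itself, fell by 0.53 and 0.63, or by 0.34 and 0.25 over the mean of its probe sets.

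Atg5, the protein to which ATG12 is attached, rose. Its level was 8.26, 8.13 and 8.02 in wild-type naive arrays and 8.10, 8.03 and 7.90 in knockout naive arrays, against 8.45 and 8.65 in wild-type activated and 8.71, 8.51 and 8.54 in knockout activated arrays. The activated arrays were higher without overlap, with log2 differences of 0.41 (SE 0.101, limma adjusted p = 0.0049) and 0.57 (SE 0.090, adjusted p = 1.3e-04). The wild-type call was lost without wild-type activated replicate 2 (0.31, adjusted p = 0.065), and the wild-type mean over probe sets was 0.24 (adjusted p = 0.043). Atg16l2, a relative of the ATG12-ATG5 partner ATG16L1, fell by 0.33 in wild type (adjusted p = 0.019) and 0.40 in knockout (adjusted p = 0.0026). The wild-type call of Atg16l2 was lost without wild-type activated replicate 1 (-0.19, adjusted p = 0.22) or wild-type naive replicate 3 (adjusted p = 0.062), and the knockout call over the mean of its probe sets (-0.16, adjusted p = 0.067). Atg7, the E1-like enzyme, Atg3, the E2-like enzyme of the ATG8 proteins, and Atg16l1 were called in neither genotype, with differences between -0.15 and 0.12. Other Atg7 probe sets disagreed. In wild type 1 of them fell (-0.28, adjusted p = 0.013), and it read -0.13 in knockout, not called. Another rose in knockout (0.36, adjusted p = 0.022) and read 0.06 in wild type, not called. The wild-type value of Atg3 passed without wild-type activated replicate 2 (-0.28, adjusted p = 0.024) and was -0.03 without replicate 1.

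The ATG4 proteases process ATG8 proteins before conjugation and release them from membranes afterwards. Atg4a fell by 0.58 (SE 0.083, limma adjusted p = 7.4e-05) in wild type and 0.47 (SE 0.074, adjusted p = 1.3e-04) in knockout, with a wild-type mean over probe sets of -0.34. Atg4b read 8.47, 8.33 and 8.27 in naive and 8.46 and 8.82 in activated wild-type arrays. In knockout it read 8.35, 8.27 and 8.33 in naive and 8.64, 8.60 and 8.51 in activated arrays. The knockout states were apart, but the lower wild-type activated array lay among the naive ones. Atg4b passed the threshold upward in both, at 0.28 in wild type (SE 0.103, adjusted p = 0.043) and 0.27 in knockout (SE 0.092, adjusted p = 0.031). The wild-type call was lost without any 1 of 9 arrays, all but wild-type naive replicate 1 and wild-type activated replicate 1 (adjusted p 0.052 to 0.44), and the value ran from 0.10 without wild-type activated replicate 2 to 0.46 without replicate 1. It was also lost over the mean of its probe sets (0.11, adjusted p = 0.19), with only the compared arrays (adjusted p = 0.12), with arrays centred on the median (adjusted p = 0.069) and with the replicate block (adjusted p = 0.086). The knockout call was lost without any 1 of 5 knockout arrays, all but activated replicate 3 (adjusted p 0.052 to 0.1).

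Atg4c was dim, below its array's lower quartile in 5 of 11 arrays, the only member with such values. It read 5.02, 4.83 and 4.54 in naive and 4.65 and 4.71 in activated wild-type arrays. In knockout it read 4.50, 4.58 and 4.16 in naive and 4.79, 4.83 and 4.62 in activated arrays. Only the knockout states were apart, and there by little. The knockout difference passed at 0.34 (SE 0.127, limma adjusted p = 0.047), and the wild-type difference was -0.12 (SE 0.142, adjusted p = 0.54). The knockout call was lost without any 1 of 7 arrays, which include knockout naive replicates 1 and 3, knockout activated replicates 1 and 2, both wild-type activated arrays and wild-type naive replicate 2 (adjusted p 0.053 to 0.21). It read 0.21 without knockout naive replicate 3 and 0.10 over the mean of its probe sets. Atg4d fell by 0.24 in knockout (adjusted p = 0.011), a call that was lost over the mean of its probe sets (-0.16, adjusted p = 0.072), and differed by -0.09 in wild type (adjusted p = 0.36).

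Of the genes of ATG8 proteins, which are attached to the autophagosome membrane, Map1lc3a, Map1lc3b and Gabarapl2 fell in both genotypes and Gabarapl1 rose. Map1lc3a, an LC3 gene, read 9.09, 9.07 and 9.10 in wild-type naive arrays and 9.20, 9.15 and 9.21 in knockout naive arrays. It read 7.95 and 8.01 in wild-type activated arrays and 7.88, 8.13 and 7.76 in knockout activated arrays. Naive arrays were nearly identical within a genotype and lay far above the activated ones, a 2.16-fold fall in wild type (-1.11, SE 0.096, limma adjusted p = 9.7e-07) and a 2.40-fold fall in knockout (-1.26, SE 0.086, adjusted p = 5.9e-08). A second, dimmer Map1lc3a probe set fell by 0.58 and 0.91, and the mean of both by 0.84 and 1.09. Map1lc3b, whose protein is the usual autophagosome marker, fell by 0.62 (SE 0.084, adjusted p = 4.5e-05) and 0.64 (SE 0.075, adjusted p = 8.7e-06). Its 3 other probe sets fell further, by 1.22 to 1.41 in wild type and 1.31 to 1.71 in knockout, and their mean with the first by 1.16 and 1.30.

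Of the GABARAP genes, Gabarapl2 fell by 0.43 in wild type and 0.46 in knockout, or by 0.21 and 0.24 over the mean of its probe sets. Gabarapl1 was the only member called at 2-fold or more upward, where 3.7% of all genes were in wild type and 6.02% in knockout. Gabarapl1 read 7.47, 7.11 and 6.98 in wild-type naive arrays and 7.26, 6.90 and 6.92 in knockout naive arrays. It read 8.16 and 8.38 in wild-type activated arrays and 8.38, 8.23 and 8.20 in knockout activated arrays. No naive array came near the activated ones, and the rise was 2.12-fold in wild type (1.09, SE 0.145, limma adjusted p = 4.4e-05) and 2.37-fold in knockout (1.25, SE 0.130, adjusted p = 3.0e-06). Its second probe set rose too, by 1.30 and 1.73.

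The cargo receptors tie ubiquitin-marked material to ATG8 proteins. Nbr1 read 10.22, 10.40 and 10.38 in wild-type naive arrays and 10.53, 10.45 and 10.58 in knockout naive arrays. It read 9.60 and 9.51 in wild-type activated arrays and 9.30, 9.66 and 9.30 in knockout activated arrays. The states did not overlap, and Nbr1 fell 1.72-fold in wild type (-0.78, SE 0.109, limma adjusted p = 6.5e-05) and 2.14-fold in knockout (-1.10, SE 0.098, adjusted p = 6.6e-07). A second, dimmer Nbr1 probe set fell by 0.42 and 0.47, and the mean of both by 0.60 and 0.79. Sqstm1, which encodes p62, fell by 0.25 in knockout (SE 0.084, adjusted p = 0.026) and was not called in wild type (-0.14, SE 0.094, adjusted p = 0.25). Single arrays decided both values: the knockout call was lost without knockout naive replicate 1 or 3 or knockout activated replicate 2 or 3 (adjusted p 0.061 to 0.092), and the wild-type value passed at -0.30 without wild-type activated replicate 2 (adjusted p = 0.02) and was 0.01 without replicate 1. A dimmer Sqstm1 probe set fell by 1.87 in wild type and 1.61 in knockout, and the mean of both probe sets by 1.01 and 0.93.

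**Figure D3:**
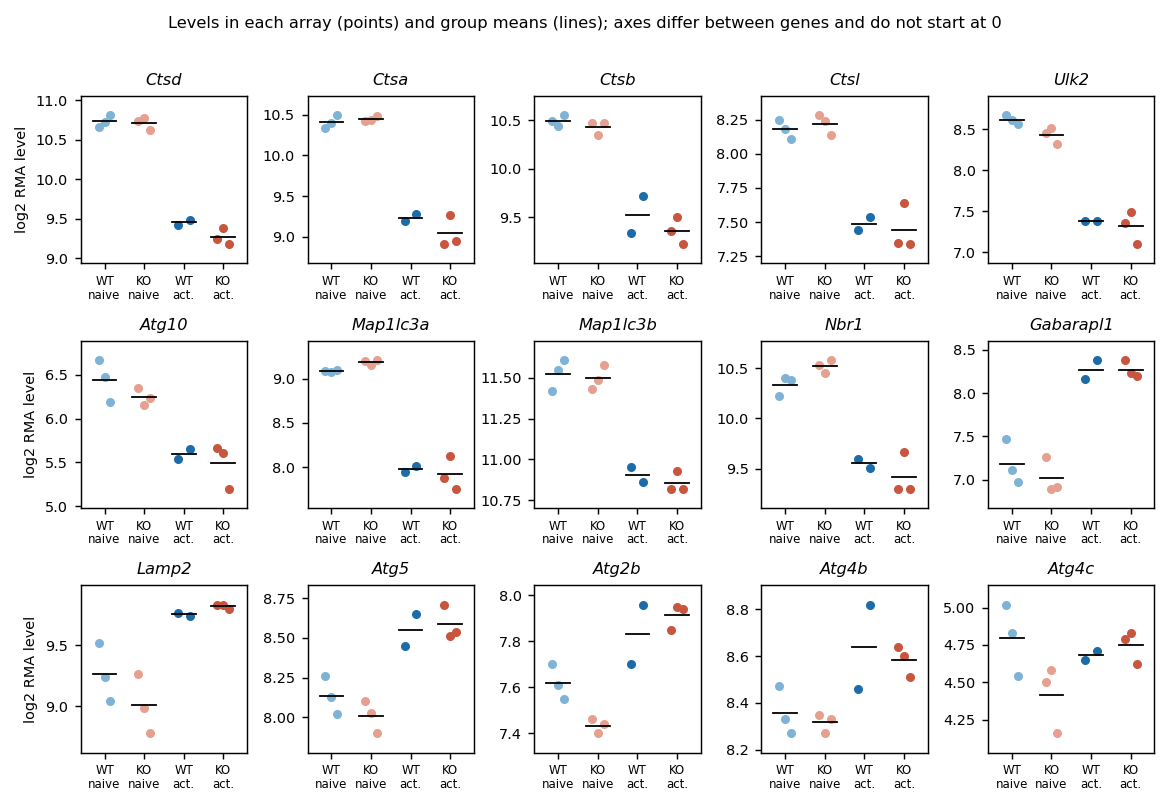
Level of 15 genes in each array (points, log2 RMA units on the y axis, axes differ between genes) with the mean of each group (lines), with naive wild type, naive knockout, activated wild type and activated knockout from left to right in a panel. For the cathepsins, Ulk2, Atg10, Map1lc3a, Map1lc3b and Nbr1 all 5 activated arrays lie below all 6 naive ones, and for Gabarapl1, Lamp2 and Atg5 all 5 lie above.

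The wider pathway was measured on lists of 124 further genes. Of these, 74 fell and 16 rose in wild type (median -0.39), and 76 fell and 19 rose in knockout (median -0.42). These are 59.7% lower and 12.9% higher in wild type and 61.3% and 15.3% in knockout, against 20.9% and 20.2%, and 22.4% and 20.7%, of all genes. Among 29 other autophagy genes 19 fell in each genotype, with 4 rises in wild type and 3 in knockout. The largest differences were those of Tecpr1, a tethering factor that helps autophagosomes fuse with lysosomes (-2.06 and -2.51), Vmp1, a scramblase of the endoplasmic reticulum (1.29 and 1.34), and Fyco1, an adaptor for transport along microtubules (-1.07 and -1.40). Atg9a, the lipid scramblase of the vesicles that seed the membrane, fell by 1.05 and 1.15, and Pink1, the kinase that marks damaged mitochondria, by 0.92 and 1.26.

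Lysosomal hydrolases outside the 4 cathepsins fell in 25 of 36 cases in each genotype, with 3 rises in wild type and 4 in knockout, and their median differences were -0.60 and -0.69. Acp5, the tartrate-resistant acid phosphatase, had the largest fall, with naive arrays at 11.08 to 11.24 and activated arrays at 7.58 to 8.31 (-2.96 in wild type, -3.44 in knockout). The next were Arsb, arylsulfatase B (-2.40 and -2.37), Gm2a, the GM2 ganglioside activator (-2.07 and -2.41), Lipa, the lysosomal acid lipase (-1.74 and -1.81), and Ctso, cathepsin O (-1.54 and -1.97). Ctsz, cathepsin Z, was higher after activation, with naive arrays at 10.11 to 10.40 and activated arrays at 10.82 to 11.32. Its mean level went from 10.25 to 11.06 in wild type and from 10.22 to 11.20 in knockout. Macrophage markers moved with the genes that fell, as given above, and their part was not tested.

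Of 27 other lysosomal membrane and transport proteins 18 fell and 2 rose in wild type, and 20 fell and 3 rose in knockout. The largest falls in wild type were those of Tpcn1, a channel of endosomes and lysosomes (-1.25 and -1.36), Slc38a9, the arginine sensor of the lysosome (-1.04 and -0.88), Laptm5, a lysosomal protein of blood cells (-0.97 and -1.17), and Ostm1, the partner of the chloride exchanger ClC-7 (-0.94 and -1.01). In knockout Scarb2, the receptor that delivers glucocerebrosidase (-0.90), and not Slc38a9, stood among the largest 4. The vacuolar ATPase, the pump that acidifies the lysosome, was less shifted, with 6 of 17 subunit genes lower in each genotype, 2 higher in wild type and 4 higher in knockout, and medians of -0.08 and -0.01. Its Atp6v0a2 fell by 1.19 and 1.17, Atp6v1d by 1.11 and 1.33 and Atp6v0d1 by 0.72 and 0.76, while Atp6v1h rose by 0.50 and 0.69.

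The 15 genes of the TFEB family and of its control at the lysosome surface went both ways, with 5 higher and 6 lower in each genotype. Rragd, a Rag GTPase, rose by 1.96 and 1.82, and Fnip2, a folliculin partner, by 1.40 and 2.72. The wild-type naive arrays of Fnip2 ran from 5.34 to 6.92 and the knockout naive arrays from 4.81 to 5.15; its rise in wild type was 1.02 to 1.81 when 1 array was left out. Foxo1, a forkhead factor of naive T cells, fell by 1.87 and 1.84, and Mitf, a TFEB relative, by 0.94 and 1.18. Leaving out 1 array at a time, the number of falls in these 5 lists was 18 to 21 for other autophagy genes, 23 to 26 for hydrolases, 16 to 20 for membrane proteins, 5 to 6 for vacuolar ATPase subunits and 5 to 6 for the TFEB list over both genotypes. The small counts of rises in wild type moved more. Without wild-type activated replicate 1 there were 5 among the vacuolar ATPase genes and 5 among the hydrolases. Without wild-type activated replicate 2 there were 2 among other autophagy genes, and without wild-type naive replicate 2 or 3 there was 1 among membrane proteins.

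**Figure D4:**
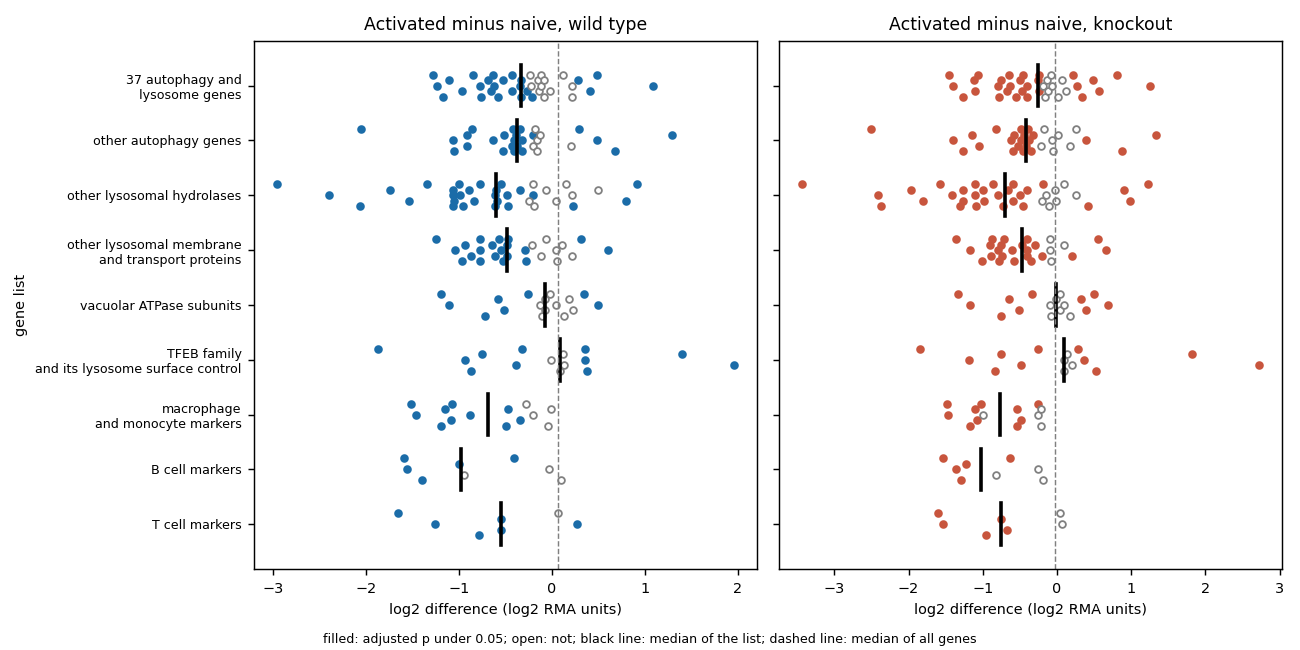
Log2 difference between activated and naive cells (x axis, log2 RMA units) of every measured gene of 9 lists in wild type (left) and knockout (right); filled points have a limma adjusted p under 0.05, black lines are list medians and the dashed line is the median of all genes. Hydrolases and the macrophage, B cell and T cell markers have medians between -0.55 and -1.03, and vacuolar ATPase and TFEB list medians lie near 0.

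Between the genotypes, 0 of the 37 genes passed the threshold in naive cells (limma; 0.148% of all genes did), 0 did in activated cells (0.0605% of all genes) and 0 over the average of the states (0.104% of all genes). At an unadjusted p under 0.05 the counts were 3, 1 and 1 of the 37, against 2642, 1256 and 1298 of all 18194 genes. The share among the 37 genes was the smaller one each time. The median difference, knockout minus wild type, was -0.03 in naive and -0.02 in activated cells. The 95% intervals of the 37 genes reached from -0.66 to 0.39 in naive cells and from -0.43 to 0.38 in activated cells, so differences of 2-fold lie outside all of them and smaller ones inside some. A p that misses the threshold does not show that the genotypes were alike. In naive cells the arrays of 10 members (27.0%) did not overlap between genotypes, 8 of them lower in knockout; of all genes 20.4% did not overlap, and 10.4% did so with knockout lower. In activated cells 5 members (13.5%) did not, against 19.4% of all genes.

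The gene nearest to a genotype difference was Pik3c3, the lipid kinase. It read 8.20, 8.31 and 8.05 in wild-type naive arrays and 8.02, 7.96 and 7.78 in knockout naive arrays, 7.96 and 7.96 in wild-type activated arrays and 7.82, 7.88 and 7.70 in knockout activated arrays. The knockout arrays were the lower ones in each state, without overlap, with the naive groups nearly touching. The difference was -0.26 in naive cells (limma unadjusted p = 0.010, adjusted p = 0.21) and -0.21 on the mean of both states (SE 0.066, unadjusted p = 0.0068, adjusted p = 0.45). Atg4c in naive cells differed by -0.38 (unadjusted p = 0.010, adjusted p = 0.21) and Atg2b by -0.19 (unadjusted p = 0.033). In activated cells the member with an unadjusted p under 0.05 was Atg4d, at -0.18. Pik3c3 and Atg4c each passed under 1 other model of the naive comparison, and 0 members passed without any 1 array. Both models called many more genes than the main one, which called 27 of all 18194 in naive cells. With array weights 1237 of all genes passed and Pik3c3 was the only member. With the replicate block 277 passed and Atg4c was the only member. Passing there is therefore weak evidence of a genotype difference in either gene.

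**Figure D5:**
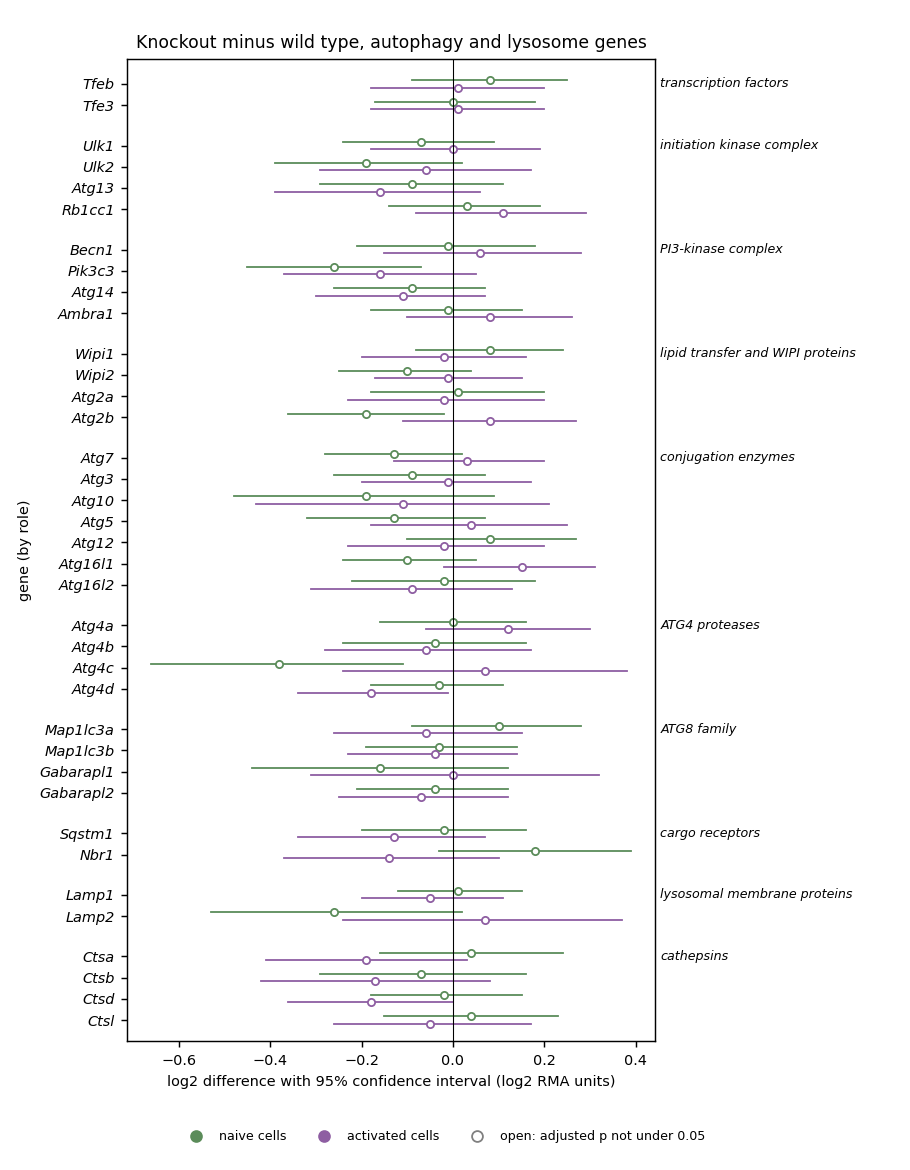
Log2 difference between knockout and wild type (x axis, log2 RMA units) for the 37 genes in naive (green) and activated (purple) cells, with 95% confidence intervals from limma; open points have an adjusted p of 0.05 or more, which is all of them. Points lie between -0.38 and 0.18, and most intervals cross 0.

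The activation response itself was compared between genotypes by the interaction, knockout response minus wild-type response. It passed for 0 of the 37 genes by limma, and for 0 of all 18194 genes (0%). The share of all genes at an unadjusted p under 0.05 is not given here, so no claim about the set is drawn from it. At that unadjusted p there were 4 of the 37. These were Atg16l1 (0.24, SE 0.100), Atg2b (0.27, SE 0.117), Atg4c (0.46, SE 0.190) and Nbr1 (-0.32, SE 0.146), with adjusted p between 0.32 and 0.36. Over the mean of its probe sets the interaction of Atg2b turned to -0.01 (adjusted p = 0.95), and without 1 array it ran from 0.14 to 0.40. The genes called in only 1 genotype, Ulk1 and Wipi2 in wild type and Tfe3, Atg2b, Atg4c, Atg4d and Sqstm1 in knockout, were therefore not shown to respond differently. With 2 wild-type activated arrays, SEs of the wild-type response were larger than those of the knockout response. Of all marker genes of other cells Klra8, a natural killer cell receptor, was the only one called by genotype, at 0.94 higher in knockout naive cells (adjusted p = 0.038). In naive cells the 5 erythroid markers had a median difference of -1.06, knockout minus wild type (0 called, 4 at an unadjusted p under 0.05), the 7 neutrophil markers a median of 0.45 (0 called, 1 unadjusted) and the 8 B cell markers a median of 0.38 (0 called, 1 unadjusted). The neutrophil differences ran from -0.84 to 1.26. Their highest, S100a9, read 8.51 in knockout naive replicate 1 but 5.71 and 5.47 in replicates 2 and 3, and 4.76 to 5.95 in wild-type naive arrays. The part of these markers in the genotype values was not tested.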

How the data were processed

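RNA of splenic T cells was labelled with biotin and hybridised to Affymetrix mouse arrays, 1 per sample. The authors deposited log2 probe set values made with GCOS, RMA and Partek, per the submitters' processing notes, which name no versions. RMA subtracts background and equalises array distributions, which narrows differences of dim probe sets, and no detection calls were used, so that the lower quartile of an array (4.57 to 4.68) stood for background. The labels call the arrays biological replicates and do not say that same-numbered arrays share an animal. The number of arrays limits the precision.

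Of 45101 probe sets 34958 had 1 gene symbol, 932 several and 9211 none, by the platform annotation. Each of the 18194 genes was read by its brightest probe set, judged by the mean of the 11 arrays. A limma model (version 3.58.1, R 4.3.3) with 1 mean per group was fitted to all arrays, with p-values adjusted over all genes after Benjamini and Hochberg. The fit was tested on simulated data. Summed marker levels are sums of 2 to the power of the log2 level. Promoters are RefSeq windows of GRCm38.p6; no genome was used. Tables and plots used pandas 2.3.3 and matplotlib 3.10.9 under Python 3.11.15.

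The members and lists were chosen with earlier results of these data known. Values in all arrays were given for members called in a genotype comparison or interaction (none were), and, among members called in each genotype's activation, for up to 6 largest rises and 6 largest falls; Tfeb, Lamp1 and Pik3c3 were added after their values were seen. Of each other list, up to 4 genes of largest difference per genotype were eligible to be named, and Ctsz was added after its values were seen. Alternatives were the mean over probe sets, all probe sets, only genes above the median level, a variance trend, only the compared arrays, array weights, quantile normalization, median centring, a replicate block and leaving out each array. Groups of fewer than 4 arrays were not examined for outlying samples.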

Additional observations from a re-analysis of the deposited data

How the results depend on the processing

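The calls of 17 of the 25 genes in wild-type and 20 of the 28 in knockout activation passed under every alternative that tested them, and those that ended without 1 array or over the mean of probe sets are given in the report with their values. A renewed quantile normalization also called Atg3 in both genotypes (-0.22 and -0.17), Tfe3 and Atg2b in wild type (0.27 and 0.31) and Ulk1, Wipi2 and Lamp1 in knockout (-0.20, -0.16 and -0.18). The number of the 37 genes called ran from 21 to 27 in wild type and from 24 to 32 in knockout over the alternatives that keep all arrays of a comparison, and from 22 to 24 and from 23 to 28 without 1 array. Some uncalled differences near 0 turned sign. Over the mean of probe sets Wipi1 read -0.14 in wild type and -0.16 in knockout, Wipi2 0.11 in knockout, and the interaction of Atg2b -0.01. Atg7 in wild type was 0.00 after quantile normalization. Without 1 array Sqstm1 in wild type ran from -0.30 to 0.01, Lamp1 in wild type from -0.07 to 0.03 and Wipi1 in knockout from -0.04 to 0.07. The cause was not tested.

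Counts over all genes moved more than the members. With all probe sets tested, which tests more features, the genotype counts were 55 (naive), 22 (activated) and 54 (mean of both), and the activation counts 13208 in wild type and 14560 in knockout. Restricted to genes above the median level, 15 passed in naive and 7 in activated cells. A variance trend gave 43 in naive cells, only the compared arrays 13 in naive and 2 in activated cells, and array weights 1237 in naive and 3 in activated cells. Without 1 array the genotype counts ran from 10 to 341 (naive), from 1 to 28 (activated), from 9 to 20 (mean of both) and from 0 to 4 (interaction). Array weights called 1 member in naive cells, Pik3c3 (-0.32, limma adjusted p = 0.027).

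Same-numbered arrays correlated between -0.299 and 0.391 in their deviations from the group means, and differently numbered ones between -0.354 and 0.299. The 2 wild-type activated arrays mirror each other by construction. Between naive genotypes the same numbers gave 0.391, 0.016 and 0.314, against -0.354 to 0.122 for different numbers. Between knockout states they gave 0.270, 0.087 and 0.216, against -0.253 to 0.043. Whether the numbers pair arrays is not settled by these values or the labels, so the block stayed an alternative. With the replicate block, 277 genes passed in naive cells and 1 for the interaction, and 1 member, Atg4c in naive cells (-0.38, adjusted p = 0.043); 25 members passed in wild-type and 27 in knockout activation. Naive wild-type replicate 2 correlated better with knockout replicate 3 than with its own number.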
